A study of Mus musculus with 3 samples.

Results

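This section describes 36 genes of the cell division cycle in single cells of injured and uninjured mouse brain. The genes were taken from a fixed list, 16 that act in S phase and 20 that act in G2 phase and mitosis (G2/M), and all 36 were found by symbol among the 55357 genes of each matrix. The list was chosen with earlier results of these data known. A cell with at least 3 unique molecular identifiers (UMIs, 1 per captured RNA molecule) summed over the 36 genes is called cycle-positive here. Of 32516 cells kept, 3938 were cycle-positive. RNA was counted in droplets on the 10x Genomics platform, in left perilesional cerebral tissue of male C57BL/6 mice aged 6 to 8 weeks. The TBI+IL-25 library came from mice with traumatic brain injury (TBI) given interleukin-25, 1 µg per mouse within 30 minutes of the injury and then daily for 3 days. The TBI+PBS library came from mice with TBI given phosphate-buffered saline over 3 days, and the sham library from mice of the sham group. Tissue was dissociated with collagenases, and red and dead cells were removed, so the libraries hold the cells that survived this. The labels name no transgene, and they do not give the number of animals in a library.

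Each group had 1 library, so no test across samples was possible. Every difference compares libraries, and every interval is a 95% interval that covers counting error only. The intervals are exact, except that those of ratios of shares treat numbers of cells as Poisson counts and run wide for large shares. The kept cells numbered 13515 in TBI+IL-25, 10309 in TBI+PBS and 8692 in sham, with a median of 3839, 4664 and 4110 UMIs in the same order. The TBI+IL-25 library also stood apart in its file header (Cell Ranger 7.2.0, against 7.1.0 in both others) and in the Rn18s ribosomal RNA gene, which took 0.798% of its UMIs, against 0.0441% in TBI+PBS and 0.0362% in sham. These features cannot be told apart from the treatment. Between 22 and 37 kept barcodes were shared by any pair of libraries. Cells fell into 13 classes named from marker genes, and the word "like" marks that the names were rebuilt. All 13 microglia, 10 astrocyte, 9 neuroblast and 8 oligodendrocyte markers were detected in the class of that name in every library.

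A dividing cell copies its DNA in S phase and separates the copies in mitosis. E2F transcription factors switch on the genes for DNA replication once the retinoblastoma proteins release them, and the DREAM and B-Myb complexes control the later mitotic genes. In the adult brain neurons and mature oligodendrocytes do not divide, microglia renew slowly and multiply after injury, and neuroblasts of the subventricular zone arise from dividing precursors. Injury can also bring astrocytes back into the cycle.

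Short words in the promoters of the members were counted, and 4 promoters are printed because they are the members with most UMIs in the cells described below that hold the words close to the start. RefSeq promoters (GRCm38.p6) were matched by symbol for 31 of the 36 members, which gave 32 promoters. The 250 bases before each start were searched on both strands. The E2F word was TTTGGCGC, TTTCCCGC, TTTGCCGC or TTTCGCGC, and some of these overlap on opposite strands. The word of the cell cycle homology region (CHR), where the DREAM complex binds, was TTTGAA or TTCGAA, and the NF-Y word was CCAAT. The E2F word was in 26.7% of 15 S-phase promoters, 5.88% of 17 G2/M promoters and 1.86% of all 32851 promoters of the table. CHR and CCAAT words together were in 47.1% of the G2/M promoters, 13.3% of the S-phase promoters and 6.02% of all promoters. CCAAT alone was in 88.2% of the G2/M promoters, 86.7% of the S-phase promoters and 33.8% of all, so most promoters of both groups held it and most S-phase promoters lacked the E2F word. Median GC content was 58.2% in the members' promoters and 52.4% in all. A match is a description of letters, not of binding. Each line below gives the 150 bases before the start, 5′ to 3′ on the gene's strand. Capitals mark the E2F word in Mcm6 (chr1:128359706-128359855, minus strand) and Mcm5 (chr8:75109359-75109508, plus strand), which encode subunits of the replicative helicase. Capitals mark the CHR and CCAAT words in Top2a (chr11:99024190-99024339, minus strand), the topoisomerase that untangles chromosomes, and Ube2c (chr2:164769779-164769928, plus strand), which hands ubiquitin to the anaphase-promoting complex.
Mcm6: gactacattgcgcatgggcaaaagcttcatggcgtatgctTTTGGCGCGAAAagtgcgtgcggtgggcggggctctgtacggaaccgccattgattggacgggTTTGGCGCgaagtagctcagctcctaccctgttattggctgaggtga
Mcm5: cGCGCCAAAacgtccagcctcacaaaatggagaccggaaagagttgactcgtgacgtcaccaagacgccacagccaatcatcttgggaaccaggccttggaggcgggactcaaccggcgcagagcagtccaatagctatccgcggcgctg
Top2a: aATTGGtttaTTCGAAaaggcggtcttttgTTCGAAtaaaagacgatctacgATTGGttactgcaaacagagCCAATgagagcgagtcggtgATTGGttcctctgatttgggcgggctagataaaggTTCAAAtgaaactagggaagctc
Ube2c: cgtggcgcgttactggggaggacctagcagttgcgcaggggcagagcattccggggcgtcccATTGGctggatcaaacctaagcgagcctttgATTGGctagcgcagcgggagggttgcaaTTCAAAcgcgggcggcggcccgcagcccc

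Which cells held these transcripts differed between the libraries. Clustered without cell cycle genes, most cells rich in mitotic transcripts were microglia-like in TBI+IL-25 and neuroblast-like in sham. Microglia-like cells held the largest share of them in TBI+PBS. Of cells with at least 3 UMIs over the 20 G2/M genes, 73.5% of 309 in TBI+IL-25 (68.2% to 78.3%), 56.1% of 228 in TBI+PBS (49.4% to 62.7%) and 2 of 117 in sham were microglia-like. With cell cycle genes in the clustering, 85.5% of these microglia-like cells in TBI+IL-25 and 64.1% in TBI+PBS left the class. They joined an unnamed cluster led by neuroblast genes. That cluster held all 13 microglia markers and all 9 neuroblast markers. Neuroblast-like cells made up 19.7% (15.5% to 24.6%), 34.6% (28.5% to 41.2%) and 91.5% (84.8% to 95.8%) of the same cells. Astrocyte-like cells contributed 8, 5 and 1 of them. Of all cells, 14.8% in TBI+IL-25, 15.0% in TBI+PBS and 4.42% in sham were cycle-positive, a ratio of 0.99 (0.92 to 1.06) for TBI+IL-25 over TBI+PBS and 3.40 (3.04 to 3.81) for TBI+PBS over sham. The ratio of TBI+IL-25 over TBI+PBS was 0.87 (0.81 to 0.95) without Pcna and 1.26 (1.12 to 1.41) after each cell was thinned to 2000 UMIs, so its side of 1 turned with the setting. Over G2/M genes alone the ratio of TBI+PBS over sham was 1.64 (1.31 to 2.07), and 0.99 (0.73 to 1.35) thinned. Microglia-like cells made up 82.0% of the cycle-positive cells in TBI+IL-25, 72.6% in TBI+PBS and 44.8% in sham, and neuroblast-like cells 3.94%, 7.82% and 39.6%. Both comparisons share the TBI+PBS library.

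**Figure D1:**
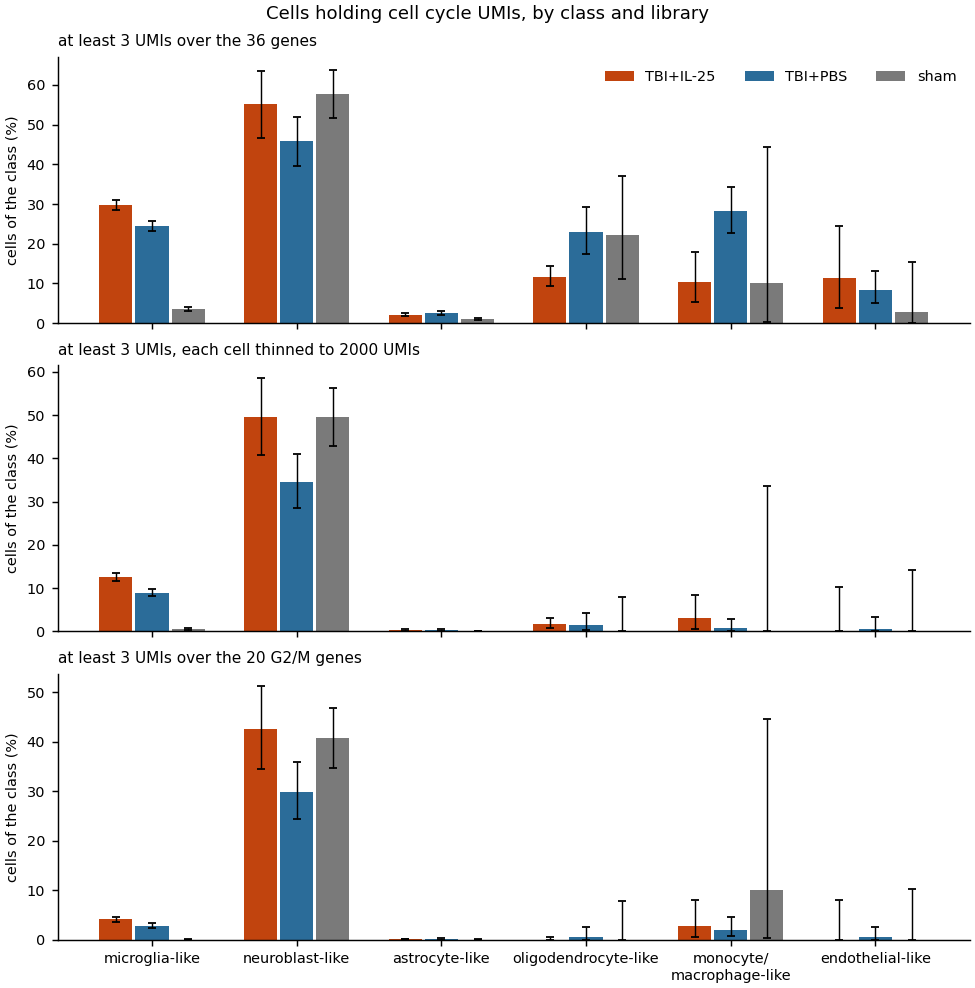
Share of cells in 6 classes (vertical axis, percent of the class) that hold at least 3 UMIs over the 36 genes at their own depth, the same after thinning to 2000 UMIs, and at least 3 UMIs over the 20 G2/M genes; bars are libraries and error bars exact 95% intervals. Microglia-like cells stood at 29.7% in TBI+IL-25, 24.4% in TBI+PBS and 3.46% in sham in the upper panel, and the share in oligodendrocyte-like cells nearly vanished after thinning.

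Microglia-like cells showed the widest gap between injured and sham brain. Cycle-positive cells were 29.7% of 5530 in TBI+IL-25 (28.5% to 31.0%), 24.4% of 4602 in TBI+PBS (23.2% to 25.7%) and 3.46% of 4973 in sham (2.97% to 4.01%). The share was 7.06-fold (6.01 to 8.34) higher in TBI+PBS than in sham. Cycle-positive cells were deeper than the rest, with a median of 5974, 7363 and 5167 UMIs in the same order of libraries, so each cell was also thinned to 2000 UMIs. Thinning left out 8.03%, 6.87% and 12.6% of the microglia-like cells as too shallow. The thinned shares were 12.6%, 8.98% and 0.483%, and TBI+PBS stood 18.6-fold (12.0 to 30.4) over sham. Cells just inside the limit, with exactly 3 UMIs, numbered 447, 262 and 120, and cells with exactly 2 numbered 771, 490 and 476. At 5 or more UMIs the shares were 17.0%, 15.3% and 0.342%, so the sham cells lay close to the limit.

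The injured libraries differed less from each other. The share was 1.22-fold (1.13 to 1.31) higher in TBI+IL-25 than in TBI+PBS, and 1.40-fold (1.23 to 1.59) after thinning. Without Pcna, the ring that clamps DNA polymerase to its template, the shares were 21.0% and 19.8%, a ratio of 1.06 whose interval (0.97 to 1.16) spans 1. Counting only G2/M genes, the shares were 4.10% (227 cells) in TBI+IL-25 and 2.78% (128 cells) in TBI+PBS, a ratio of 1.48 (1.18 to 1.85), and 0.0402% (2 cells) in sham. Thinned, the G2/M ratio was 2.44 (1.69 to 3.59).

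In most cycle-positive microglia-like cells S-phase UMIs were detected and no G2/M UMI was. A cell was called S when at most 33.3% of its member UMIs were from G2/M genes, G2/M at 66.7% or more, and mixed between. S calls made up 93.4% of cycle-positive microglia-like cells in TBI+IL-25 (92.1% to 94.5%), 95.3% in TBI+PBS (93.9% to 96.4%) and 94.8% in sham (90.3% to 97.6%). No G2/M UMI at all was seen in 65.8%, 58.2% and 76.2% of them. G2/M calls were 33, 9 and 5 cells. These calls use UMIs only and do not show that a cell divided. Cells with at least 3 S-phase UMIs held a median of 5, 6 and 3 of them in TBI+IL-25, TBI+PBS and sham. With so few UMIs, a cell without a G2/M UMI may still hold mitotic transcripts. In thinned cells the S share was 83.3% in TBI+IL-25 (80.1% to 86.1%) and 91.4% in TBI+PBS (88.2% to 94.0%). Cells with at least 3 G2/M UMIs were seldom without S-phase transcripts, since 95.6% of 227 in TBI+IL-25 and 96.9% of 128 in TBI+PBS also held at least 3 S-phase UMIs. Conversely, at least 3 G2/M UMIs were held by 13.9% (12.2% to 15.7%) and 11.6% (9.78% to 13.7%) of cells with at least 3 S-phase UMIs.

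**Figure D2:**
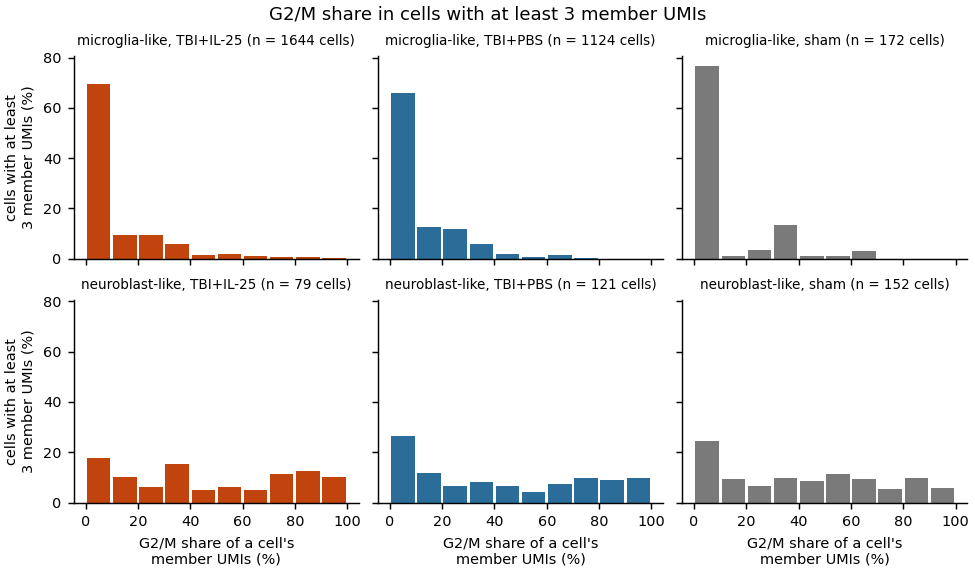
Share of a cell's member UMIs that came from G2/M genes (horizontal axis, percent, in 10 bins) for cycle-positive microglia-like and neuroblast-like cells, as percent of those cells (vertical axis). Microglia-like cells pile up near 0 in each library, and neuroblast-like cells spread over the whole range.

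All 16 S-phase genes were higher in microglia-like cells of injured than of sham brain, and Uhrf1 and Dtl had the highest ratios of TBI+PBS over sham. Levels are UMIs of a gene per 1000000 UMIs of the class in that library (CPM), and each ratio of levels carries its interval. Mcm2 stood at 34.1 CPM in TBI+IL-25, 40.4 in TBI+PBS and 3.54 in sham, so TBI+PBS was 11.4-fold (8.94 to 14.8) higher than sham. Mcm5 stood at 32.7, 41.9 and 3.08 CPM, a ratio of 13.6 (10.5 to 18.0). Both genes encode subunits of the helicase that unwinds DNA, and the injured libraries lay far above sham for each. Mcm6 had 53.0, 56.1 and 9.23 CPM, and Mcm3 had 82.2, 105 and 35.8 CPM, a lower ratio of 2.93 (2.70 to 3.19). Uhrf1, which guides maintenance methylation to new DNA, had 24.2, 19.8 and 0.820 CPM, a TBI+PBS over sham ratio of 24.1 (14.7 to 42.5). Dtl, which marks replication factors for destruction, had 18.0, 15.5 and 0.769 CPM, a ratio of 20.2 (12.1 to 36.4). Several members supply nucleotides. Rrm1, a ribonucleotide reductase subunit, had 30.9, 26.4 and 11.7 CPM, Tyms, thymidylate synthase, 32.7, 25.6 and 14.6, and Tk1, thymidine kinase, 12.5, 10.9 and 3.23. Rrm2, the subunit made in S phase, had 8.66, 11.1 and 1.44 CPM, the highest TBI+PBS over sham ratio of these 4 genes at 7.72 (5.23 to 11.8). Pcna had 171, 96.6 and 50.6 CPM, and a ratio of TBI+PBS over sham of 1.91 (1.77 to 2.06). The 5 other S-phase members lay between these extremes. Pclaf, which binds PCNA, had 18.0, 18.4 and 4.41 CPM, the cyclin Ccne2 9.60, 6.24 and 0.564, and the repair factor Rad51ap1 13.5, 11.5 and 1.90. The repressor E2f8 had 5.76, 2.54 and 0.308 CPM, and Esco2, which joins sister chromatids, 7.48, 2.82 and 0.308.

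The mitotic genes had fewer UMIs in microglia-like cells but were also higher after injury. Mki67, a coat protein of mitotic chromosomes used to mark dividing cells, had 15.0 CPM in TBI+IL-25, 6.32 in TBI+PBS and 0.564 in sham. Top2a had 24.7, 15.2 and 1.74 CPM, and Cdk1, the kinase that drives mitosis, 17.7, 14.5 and 3.08. All 3 were highest in TBI+IL-25 and lowest in sham. Tpx2, which builds the spindle, had 131 UMIs in TBI+PBS and 4 in sham, a ratio of 25.4 (9.68 to 94.5). The kinesin Kif23 and cyclin Ccnb2 showed smaller ratios, 2.57 (1.44 to 4.81) and 3.21 (1.38 to 8.68). Cenpf, a kinetochore protein, had 6.30 CPM in TBI+IL-25, 2.66 in TBI+PBS and 2.36 in sham, and the interval of TBI+PBS over sham, 0.76 to 1.68, spanned 1. The mitotic kinases differed among themselves, with Aurkb at 7.77, 5.68 and 0.564 CPM, Aurka at 2.76, 2.26 and 0.871, and Plk1 at 1.86, 1.23 and 0.308. Of the spindle checkpoint genes, Bub1b had 4.4, 2.14 and 0.564 CPM, and Cdc20, the activator that ends the checkpoint, 3.26, 3.34 and 1.13. The cyclin Ccna2 had 4.62, 3.97 and 0.564 CPM, and Ccnb1 2.26, 1.79 and 0.308. Each of these 7 genes was at least 2.60-fold higher in TBI+PBS than in sham. So were Birc5, Cenpe, Bub1, Kif11, Nusap1 and Ube2c, of which Ube2c had the lowest ratio, 2.62 (1.59 to 4.49).

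Over the list, 33 of 36 members were at least 2-fold higher in TBI+PBS than in sham microglia-like cells, against 7.03% of the 14943 genes with at least 20 UMIs over both libraries. They were 14 of 16 S-phase and 19 of 20 G2/M members. The members' median was 2.36 on the log2 scale, against -0.15 over those genes. The 3 below 2-fold were Tyms, Pcna and Cenpf. None was lower, where 7.58% of the genes were at least 2-fold lower. Members measured by few sham UMIs, such as Bub1 with 64 UMIs in TBI+PBS and 1 in sham, have wide intervals (8.59 to 1989 for Bub1). The count was 16 when cell cycle genes entered the clustering. In that clustering 241 microglia-like cells in TBI+IL-25 and 104 in TBI+PBS left the class for an unnamed cluster. That cluster was led by neuroblast genes and also held all 13 microglia markers. The cells that left included 85.5% and 64.1% of the microglia-like cells with at least 3 G2/M UMIs. Fine cluster 7 led in TBI+PBS with 25.6% of the microglia-like cells, and clusters 0 and 6 held 53.1% and 34.8% in sham, so the class differs in makeup between libraries. Fewer cells expressing a gene and less RNA per cell cannot be told apart in such sums.

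**Figure D3:**
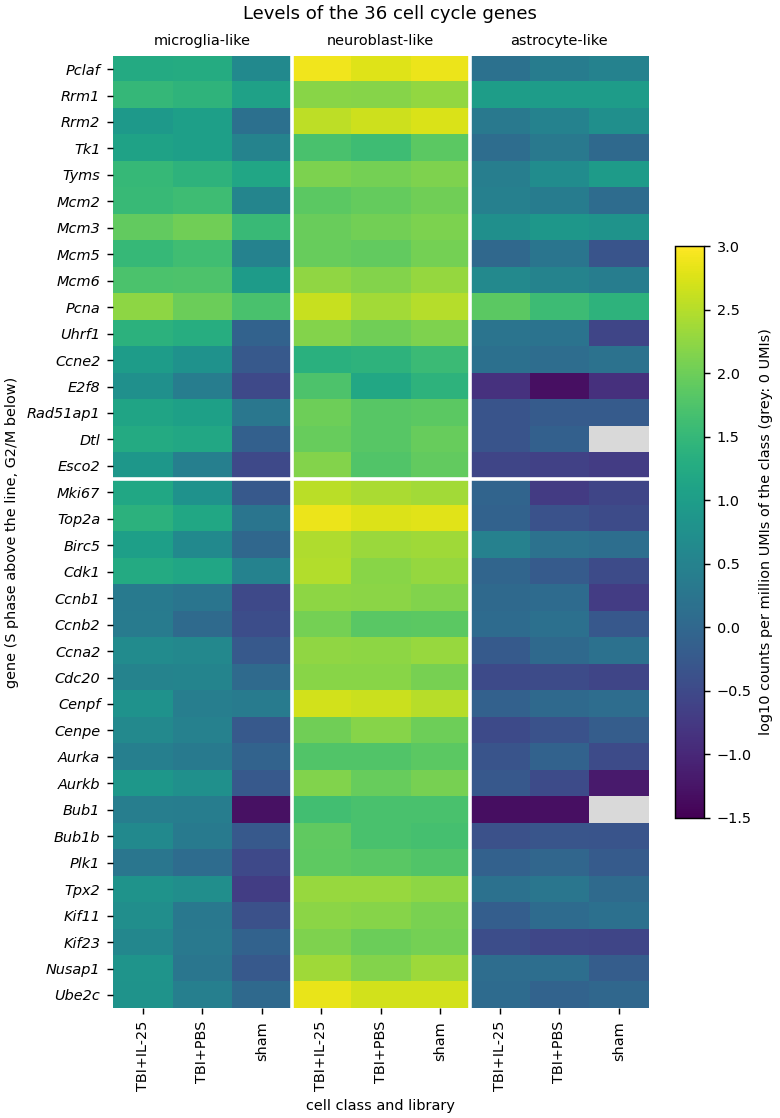
Levels of the 36 genes (rows, S phase above the line) in microglia-like, neuroblast-like and astrocyte-like cells of each library (columns), as log10 CPM, with grey for 0 UMIs. Microglia-like cells of the injured libraries are brighter than sham, and neuroblast-like cells are bright in every library.

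Between the injured libraries, most mitotic genes stood higher in TBI+IL-25 microglia-like cells, and the helicase genes Mcm2, Mcm3 and Mcm5 lower. The interval of Mcm6 (0.95, 0.88 to 1.02) spanned 1. At least 2-fold higher in TBI+IL-25 than in TBI+PBS were 10 of 36 members, against 6.35% of 15374 genes. They were the G2/M genes Mki67, Birc5, Ccnb2, Cenpf, Bub1b, Kif11, Nusap1 and Ube2c and the S-phase genes E2f8 and Esco2. None was 2-fold lower, against 4.67% of the genes. Above 1 lay 19 of 20 G2/M members, Cdc20 (0.98, 0.72 to 1.33) being the exception, and 10 of 16 S-phase members. The share of all genes above 1 was not counted. The median log2 ratio was 0.65 over the G2/M members, 0.22 over the S-phase members and -0.06 over the 15374 genes. Nusap1, a spindle-associated protein, had 6.77 CPM in TBI+IL-25 and 1.83 in TBI+PBS, a ratio of 3.70 (2.67 to 5.23). Birc5, the inhibitor-of-apoptosis protein of the chromosomal passenger complex, had 11.1 and 4.29 CPM, a ratio of 2.58 (2.07 to 3.24). Mki67 had a ratio of 2.37 (1.97 to 2.86), and the spindle motor Kif11 one of 2.67 (1.92 to 3.75). Of the S-phase genes, Esco2 had a ratio of 2.65 (2.02 to 3.52) and E2f8 one of 2.27 (1.69 to 3.08). The intervals of these genes lay above 1. Mcm3 lay below, with 82.2 CPM in TBI+IL-25 and 105 in TBI+PBS, a ratio of 0.78 (0.74 to 0.83), and so did Mcm5 at 0.78 (0.71 to 0.85), Mcm2 at 0.84 (0.77 to 0.92) and Rrm2 at 0.78 (0.66 to 0.93). Top2a had a ratio of 1.62 (1.43 to 1.84) and Cdk1 one of 1.22 (1.07 to 1.40). In the clustering with cell cycle genes the count was 1.

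**Figure D4:**
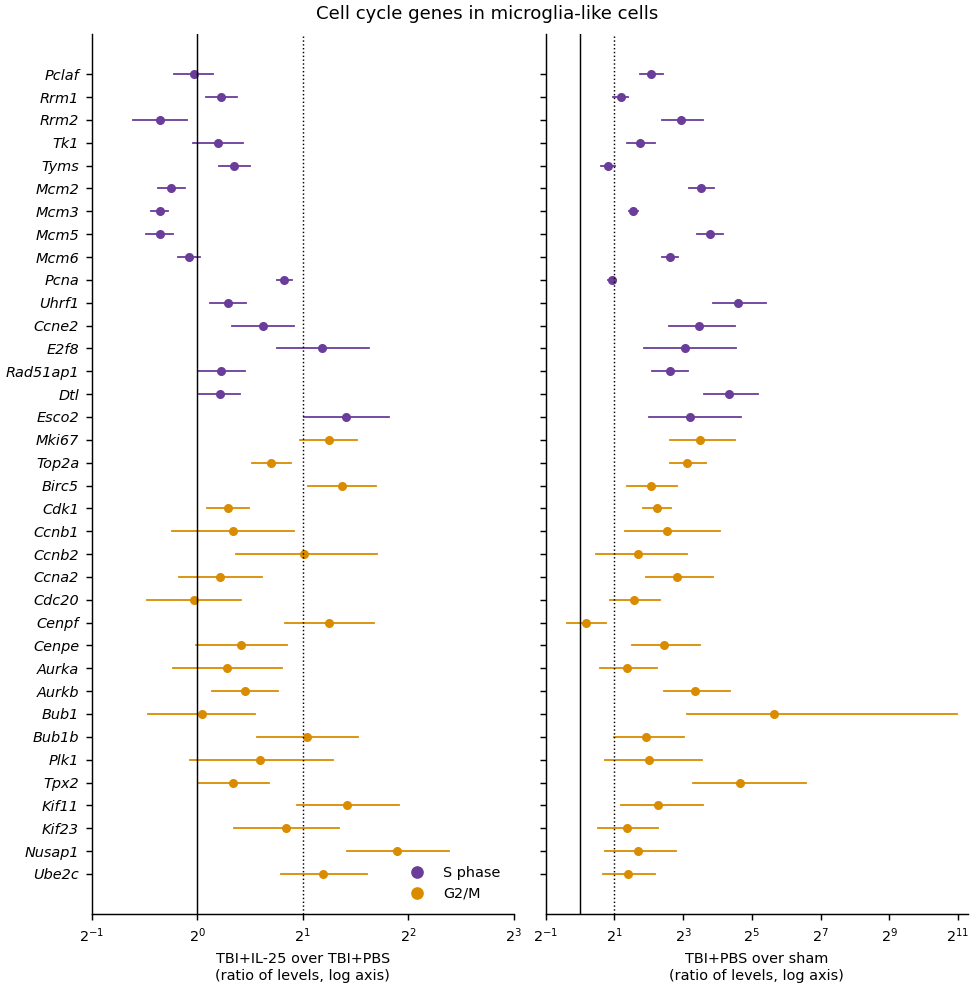
Ratio of levels in microglia-like cells for the 36 genes (rows), TBI+IL-25 over TBI+PBS on the left and TBI+PBS over sham on the right, on log2 axes; lines are exact 95% intervals, the solid line marks 1 and the dotted line 2. On the left, Mcm3, Mcm5 and Mcm2 lie below 1 and Nusap1 lies at 3.70; on the right, each of the 36 points lies above 1.

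Pcna was higher in TBI+IL-25 than in TBI+PBS in classes with many and with few mitotic transcripts. The ratio was 1.77 (1.69 to 1.86) in microglia-like, 1.89 (1.73 to 2.06) in astrocyte-like, 1.78 (1.54 to 2.05) in neuroblast-like and 1.74 (1.47 to 2.06) in oligodendrocyte-like cells. In monocyte and macrophage-like cells it was 1.35 and the interval, 0.98 to 1.83, spanned 1. In oligodendrocyte-like cells Pcna stood at 165 CPM in TBI+IL-25, 95 in TBI+PBS and 89.1 in sham and made up 67.3%, 58.7% and 66.1% of the member UMIs. Cdkn1a, the inhibitor p21 that binds PCNA, was also higher in TBI+IL-25 than in TBI+PBS, with 284 and 132 CPM in microglia-like, 594 and 148 in astrocyte-like and 570 and 166 in oligodendrocyte-like cells. In neuroblast-like cells Cdkn1a had 88.5 and 55.4 CPM, a ratio of 1.60 (1.17 to 2.19). In monocyte and macrophage-like cells it had 426 and 465 CPM, and the interval of the ratio, 0.80 to 1.05, spanned 1. The part of Cdkn1a in the Pcna difference was not tested. The 2 Pcna copies listed beside it in the matrix held 22 UMIs.

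Microglia-like cells were then compared within fine clusters, which were found without cell cycle genes. Cluster 9, led by Lpl, Spp1 and Msr1, and cluster 16, led by Aif1, Lyz2 and C1qb, had high shares of cycle-positive cells in TBI+PBS. In TBI+IL-25, cluster 9 lay below clusters 1, 5 and 7 after thinning, and cluster 16 lay below them at full depth. In thinned cells of cluster 16 the share was 29.1% of 110 in TBI+IL-25 and 30.2% of 139 in TBI+PBS. That cluster was shallow, with a median of 1359 UMIs in TBI+IL-25 and 2911 in TBI+PBS, so thinning kept 110 of 417 and 139 of 156 cells. At full depth its shares were 23.5% (19.5% to 27.9%) in TBI+IL-25 and 42.3% (34.4% to 50.5%) in TBI+PBS. Cluster 1, led by Hcar2, Ccl3 and Ccl12, had 12.8% of 2294 and 13.9% of 750, a ratio of 0.92 (0.74 to 1.17). The thinned ratio in cluster 16 had an interval of 0.59 to 1.56, and both intervals spanned 1. Cluster 9 was lower in TBI+IL-25, at 9.74% of 832, than in TBI+PBS, at 16.6% of 679, a ratio of 0.58 (0.43 to 0.79). Cluster 5, led by Siglech, Rgs1 and Fam71a, was higher, at 13.7% of 1221 in TBI+IL-25 and 3.99% of 727 in TBI+PBS, a ratio of 3.43 (2.30 to 5.28). Cluster 7, led by Siglech, Hpgds and P2ry12, had 11.9% of 453 and 6.43% of 1104, a ratio of 1.85 (1.28 to 2.68). Over G2/M genes alone the thinned ratio in cluster 9 was 1.43 (0.56 to 3.93), from 14 and 8 cells, so its interval spanned 1. By the same rule it was 7.14 (2.26 to 36.3) in cluster 5 and 1.35 (0.36 to 4.50) in cluster 7. Cluster 0, led by P2ry12, Siglech and Gpr34 and the main sham cluster, had 3.95% of 76 in TBI+IL-25, 2.94% of 544 in TBI+PBS and 0.503% of 2387 in sham. Within cluster 0, TBI+PBS stood 5.85-fold (2.60 to 13.5) over sham.

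**Figure D5:**
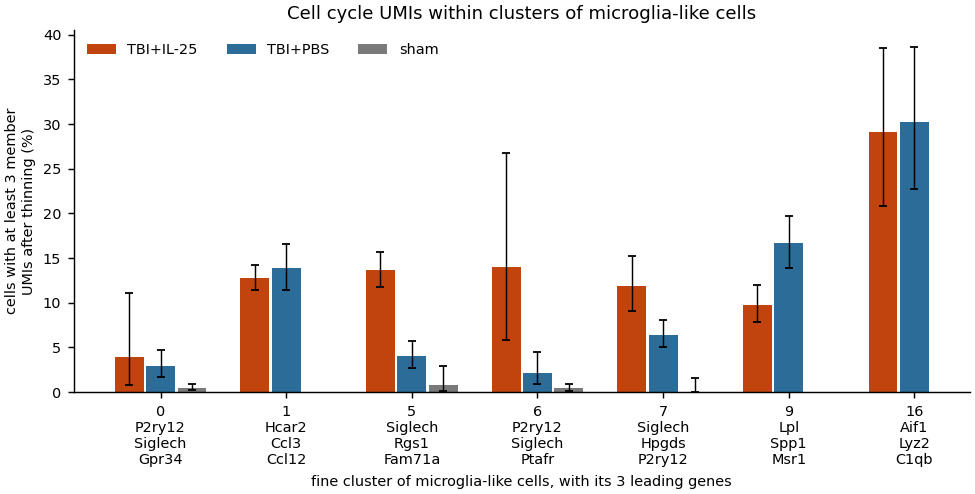
Share of cells with at least 3 member UMIs after thinning to 2000 UMIs (vertical axis, percent) in fine clusters of microglia-like cells, named below by their leading genes; bars are libraries with at least 50 cells in the cluster and error bars exact 95% intervals. Cluster 9 is higher in TBI+PBS, clusters 5 and 7 are higher in TBI+IL-25, and cluster 16 is the highest of those drawn in both injured libraries.

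Other cell cycle genes were also higher in the cycle-positive microglia-like cells. Of 35 other S-phase genes, 34 were at least 2-fold higher in cycle-positive than in other microglia-like cells of TBI+IL-25 and 33 in TBI+PBS, against 3.92% and 4.65% of all genes measured. In sham the count was 8 of 28 measured, against 3.16%. Hells, a chromatin remodeller, had 76.1 CPM in cycle-positive and 7.29 in other cells of TBI+IL-25, and 68.7 and 4.70 in TBI+PBS. The transcription factor E2f1 had 43.7 and 3.84 CPM in TBI+IL-25 and 44.8 and 2.61 in TBI+PBS. Of 47 other G2/M genes, 42 of 46 measured, 33 of 41 and 15 of 23 were at least 2-fold higher in the same order of libraries. The cells that passed 3 UMIs were chosen on related transcripts, so these counts describe them and test nothing. Summed microglia markers in cycle-positive cells were 0.90-fold in TBI+IL-25, 0.73-fold in TBI+PBS and 0.97-fold in sham of those in other microglia-like cells. Summed monocyte and macrophage markers stood at 332, 276 and 216 CPM, against 395, 225 and 155 CPM in the other cells.

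Genes outside the list of members, among them regulators of G1, were also measured in all microglia-like cells. Of 35 other S-phase genes, 30 were at least 2-fold higher in TBI+PBS than in sham, against 7.03% of all genes. Ccne1, the cyclin that starts S phase, had 10.1 and 0.256 CPM, Hells 28.7 and 1.44, and Cdc6, which loads the helicase, 6.24 and 0.154. The lowest ratios were 1.13 (1.07 to 1.19) for the histone RNA binding protein Slbp and 1.36 (1.17 to 1.58) for Wdr76. Of 47 other G2/M genes, 31 of the 43 measured were at least 2-fold higher, with Kif2c at 10.1 and 0.974 CPM and Cdca3 at 3.18 and 0.359. Troap, with 26 UMIs in TBI+PBS and 0 in sham, was 6.72-fold higher with 3 counts in place of the 0, which leaves out counting error in the 26. Pttg1 (0.77, 0.70 to 0.84) and Hjurp (0.69, 0.63 to 0.75) were lower. Of 24 G1 cyclins, kinases and E2F or DREAM factors, 7 were at least 2-fold higher and none 2-fold lower, against 7.03% and 7.58% of all genes. E2f1 had 18.4 and 1.08 CPM, E2f2 6.36 and 1.95, and their partner Tfdp1 46.5 and 18.4, whereas Tfdp2 had 9.49 and 17.3 and Rbl2 19.7 and 29.5.

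Inhibitors of the cycle lay on both sides. Cdkn2a and Cdkn2b are named after their values were seen. Of 16, 4 were at least 2-fold higher and 3 at least 2-fold lower in TBI+PBS than in sham microglia-like cells, against 7.03% and 7.58% of all genes. Cdkn1a had 132 and 27.3 CPM, the kinase Wee1 6.67 and 1.23, the stress gene Gadd45b 26.0 and 7.02, and Cdkn2a 1.39 and 0.564. Lower were Ccng2, with 80.1 and 183 CPM, Cdkn1c, with 6.04 and 19.3, and Cdkn2b, with 9 and 29 UMIs. Between the injured libraries, 4 of 16 were at least 2-fold higher in TBI+IL-25 and none 2-fold lower, against 6.35% and 4.67% of all genes. Gadd45b had 101 CPM in TBI+IL-25 and 26.0 in TBI+PBS, Gadd45a 10.7 and 3.54, and Cdkn2b 23 and 9 UMIs, whereas Trp53 had 85.9 and 107 and Ccng2 49.4 and 80.1. No other S-phase gene and no G1 gene reached 2-fold in either direction there, and 7 of 47 other G2/M genes were higher, led by Aspm with 2.29 and 0.596 CPM, Hmmr with 4.4 and 1.47, and Ckap2l with 12.1 and 5.24. Incenp had 12.5 and 19.0 CPM and Hjurp 35.6 and 39.8. The other S-phase genes with the highest ratios were Pola1 (1.87, 1.57 to 2.24), Dut (1.62, 1.47 to 1.79) and Atad2 (1.46, 1.34 to 1.59), and those with the lowest were Rpa2 (0.63, 0.56 to 0.70) and Chaf1a (0.67, 0.57 to 0.79). Of the G1 genes, Rbl1, Rb1 and Ccnd2 had ratios of 1.59, 1.51 and 1.54, and Ccnd3 and Cdk4 of 0.63 and 0.70.

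Neuroblast-like cells held far more S-phase and G2/M transcripts than microglia-like and astrocyte-like cells in each library. They were few, 143 in TBI+IL-25, 264 in TBI+PBS and 263 in sham, all but 1 in fine cluster 14, led by Dlx6os1 and Igfbpl1. Cycle-positive cells made up 55.2% (46.7% to 63.6%), 45.8% (39.7% to 52.1%) and 57.8% (51.6% to 63.8%) of them, and cells with at least 3 G2/M UMIs 42.7%, 29.9% and 40.7%. The median cycle-positive cell held 59, 40 and 42 member UMIs, against 5, 6 and 3 in microglia-like cells. S calls made up 40.5%, 52.1% and 46.7%, mixed calls 22.8%, 14.0% and 28.9%, and G2/M calls 36.7%, 33.9% and 24.3%. The intervals of these shares overlap between the libraries for S and for G2/M calls, and those of mixed calls do not overlap between TBI+PBS and sham. The summed 20 G2/M genes stood at 4751 CPM in TBI+IL-25, 3769 in TBI+PBS and 3722 in sham, against 140, 84.1 and 17.1 in microglia-like cells. Pclaf, a PCNA-binding factor, had 794, 608 and 751 CPM, Top2a 737, 575 and 625, and Ube2c 720, 483 and 491.

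Neuroblast-like cells did not follow the microglia-like pattern. Members at least 2-fold higher in TBI+PBS than in sham numbered 0 of 36, against 2.04% of 11251 genes, and none was 2-fold lower, against 1.83%. All 16 S-phase members had a ratio below 1, and 13 had an interval below 1, at a median of -0.39 on the log2 scale, against 0.00 over all genes. The members were counted in the same cells, so their intervals are not independent of one another. Rrm2 had 449 CPM in TBI+PBS and 564 in sham, Tk1 40.8 and 73.2, and Pcna 238 and 315. The G2/M members lay on both sides of 1, with Cenpe at 153 and 100 CPM, Cenpf at 434 and 328, and Nusap1 at 147 and 224. The G2/M ratios ran from 0.66 to 1.53, with 10 above and 10 below 1. The thinned share of cycle-positive cells was 34.6% of 234 in TBI+PBS and 49.6% of 228 in sham, a ratio of 0.70 (0.52 to 0.94), while at full depth the interval spanned 1 (0.79, 0.62 to 1.01). TBI+IL-25, at 49.6% of 129, was 1.43-fold (1.02 to 2.01) over TBI+PBS. Cells with at least 3 G2/M UMIs gave a ratio of 0.74 (0.54 to 0.99) for TBI+PBS over sham and 1.43 (1.00 to 2.02) for TBI+IL-25 over TBI+PBS. The intervals of these ratios of shares treat numbers of cells as Poisson counts, which makes them too wide for shares this high. An interval that reaches or spans 1, as at full depth, therefore does not show that the shares were equal.

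In neuroblast-like cells of TBI+IL-25 over TBI+PBS, 2 of 36 members were at least 2-fold higher, against 2.96% of 10219 genes. That count is near what the share over all genes would give. The members were E2f8 (3.48, 2.13 to 5.80), with 45 and 28 UMIs, and Esco2 (2.43, 1.86 to 3.19), with 119 and 106. No member was 2-fold lower, against 7.04%. Cdk1 had 300 CPM in TBI+IL-25 and 159 in TBI+PBS, and 28 of 36 members lay above 1. The share of all genes above 1 was not counted, so that number is not read as a result about the members. The interval lay below 1 for Rrm2 (0.78, 0.68 to 0.90) and for the kinetochore motor Cenpe (0.69, 0.53 to 0.88). Of 35 other S-phase genes, 1 was 2-fold lower and none 2-fold higher in TBI+PBS than in sham, Mcm10 with 16 and 42 UMIs, and Slbp had 203 and 325 CPM. Between the injured libraries 4 were 2-fold higher in TBI+IL-25, led by the polymerase gene Pole with 43.7 and 11.2 CPM and Mcm10 with 34.0 and 8.95 CPM. Ccne1, with 9.70 and 25.2 CPM, was 2-fold lower. Of 47 other G2/M genes none reached 2-fold in either comparison, and Dlgap5 had the highest ratio of TBI+PBS over sham, at 54.8 and 30.7 CPM. The kinetochore gene Spc24 had 206 CPM in TBI+IL-25, 114 in TBI+PBS and 176 in sham. Microglia markers in neuroblast-like cells summed to 790, 2149 and 3119 CPM in TBI+IL-25, TBI+PBS and sham, and their part in these values was not tested.

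Neuroblast markers summed to a lower level in cycle-positive neuroblast-like cells than in the others. The 9 neuroblast markers summed to 8450, 10739 and 9518 CPM in cycle-positive cells of TBI+IL-25, TBI+PBS and sham, against 14060, 16534 and 17412 CPM in the other cells of the class, which is 0.60-fold, 0.65-fold and 0.55-fold. The 47 other G2/M genes summed to 16.3-fold, 21.5-fold and 20.3-fold more in cycle-positive cells. Of those measured, 46 of 46, 47 of 47 and 46 of 47 were at least 2-fold higher, against 14.2%, 11% and 14.2% of all genes. The neural progenitor markers differed from one another. At least 2-fold higher in cycle-positive cells were 2 of 6 measured in TBI+IL-25, 4 of 7 in TBI+PBS and 6 of 7 in sham. Sox4, which had most UMIs of the list, went the other way at 0.55-fold, 0.57-fold and 0.42-fold, and the summed list stood at 0.78-fold, 0.78-fold and 0.61-fold. Summed microglia markers stood at 2.28-fold, 1.35-fold and 0.82-fold in TBI+IL-25, TBI+PBS and sham. Summed astrocyte markers stood at 1.32-fold, 0.98-fold and 2.22-fold in the same order. The part of RNA from other cells in these contrasts was not tested.

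Astrocyte-like cells were cycle-positive in 2.10% of 6674 in TBI+IL-25, 2.63% of 4527 in TBI+PBS and 1.01% of 3282 in sham, and few of them carried mitotic transcripts. The share was 2.61-fold (1.76 to 3.97) higher in TBI+PBS than in sham, and TBI+IL-25 over TBI+PBS was 0.80 (0.62 to 1.03), or 0.38 (0.21 to 0.68) without Pcna. After thinning the shares were 0.312%, 0.262% and 0.0384%, below the 1.64% and 1.46% of oligodendrocyte-like cells in TBI+IL-25 and TBI+PBS. The source of these UMIs was not tested. The thinned ratio of TBI+PBS over sham rests on 1 sham cell and its interval, 0.94 to 299, spans 1. Median depth before thinning was 2953, 4328 and 4514 UMIs in astrocyte-like and 3916, 8401 and 10264 in oligodendrocyte-like cells. Pcna made up 57.5%, 39.6% and 32.0% of the astrocyte-like member UMIs. S calls were 90.0% of 140 cycle-positive cells in TBI+IL-25 (83.8% to 94.4%) and 84.0% of 119 in TBI+PBS (76.2% to 90.1%). Without Pcna the S share was 57.1% of 21 cells and 67.6% of 37. Microglia markers summed to 2.88-fold, 1.91-fold and 3.09-fold more in cycle-positive than in other astrocyte-like cells of TBI+IL-25, TBI+PBS and sham, and their part in the cycle UMIs was not tested.

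At least 2-fold higher in TBI+PBS than in sham astrocyte-like cells were 6 of the 24 members that had 20 UMIs over both libraries, against 7.35% of 16573 genes. They were Uhrf1, with 34 UMIs in TBI+PBS and 4 in sham, Ccnb1, with 25 and 3, Mcm5, with 37 and 7, Ccnb2, with 30 and 8, Mcm2, with 52 and 18, and Aurka, with 17 and 5, whose interval spanned 1. The 12 members left out have the fewest UMIs, so the 24 are not the whole list. None was at least 2-fold lower, against 6.17%. Pcna had 38.3 and 25.9 CPM, a ratio of 1.48 (1.31 to 1.68), and Ube2c had 18 and 15 UMIs. Tyms, with 4.96 and 9.15 CPM, and Rrm2, with 3.15 and 5.56, were lower. Between the injured libraries, 1 of 28 measured members, Mki67 with 19 and 4 UMIs, was at least 2-fold higher in TBI+IL-25 (4.61, 1.53 to 18.6), against 5% of 16787 genes, and none was 2-fold lower, against 12.1%. The intervals of Pcna (1.89, 1.73 to 2.06) and Birc5 (1.94, 1.26 to 3.04) lay above 1, and those of Tyms (0.54, 0.39 to 0.75), Mcm3 (0.73, 0.57 to 0.93) and Pclaf (0.60, 0.37 to 0.95) below. Aurka had 10 and 17 UMIs and Ccna2 13 and 23, with intervals that spanned 1. Mki67, Top2a and Cdk1 had 19, 18 and 20 UMIs in TBI+IL-25 astrocyte-like cells, 4, 9 and 13 in TBI+PBS and 4, 5 and 5 in sham. Cyclin D1, Ccnd1, which drives the G1 phase, stood at 119 CPM in TBI+IL-25, 116 in TBI+PBS and 19.99 in sham, a ratio of 5.83 (5.16 to 6.60) for TBI+PBS over sham. Cdkn1a had 594, 148 and 12.7 CPM and Gadd45b 484, 186 and 6.57. Of the other S-phase genes, the licensing factor Cdt1 had 168 UMIs in TBI+PBS and 6 in sham, a ratio of 19.7 (8.86 to 54.4). The transcription factor E2f1, of the G1 list, had 56 UMIs in TBI+IL-25 and 141 in TBI+PBS, a ratio of 0.39 (0.28 to 0.53). The largest fine clusters of the class were 3 in TBI+IL-25, 11 in TBI+PBS and 4 in sham. Cluster 11 held all 10 astrocyte markers, but its 10 leading genes included Olig2, a marker of oligodendrocyte precursors, and no astrocyte marker, so it has no name of its own. It made up 28.1% of the class in TBI+PBS.

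In the remaining classes the members that the rule counted differed from class to class. Oligodendrocyte-like cells were cycle-positive in 11.6% of 645, 23.0% of 213 and 22.2% of 45 cells, but 0, 1 and 0 cells held 3 G2/M UMIs. The counts of 0 allow shares of up to 0.465% and 6.67% in TBI+IL-25 and sham. Pcna, Rrm1 and Mcm3 had most UMIs there, at 165, 22.5 and 12.9 CPM in TBI+IL-25. Monocyte and macrophage-like cells were cycle-positive in 10.5% of 105, 28.2% of 248 and 1 of 10 cells. After thinning the share was 3.00% of 100 cells in TBI+IL-25 and 0.820% of 244 in TBI+PBS. Their main members were Pcna, Mcm3 and Mcm6, with 68.7, 30.3 and 15.6 CPM in TBI+PBS. Ependymal-like cells were deep and cycle-positive in 28.6% of 49, 55.6% of 27 and 46.7% of 15 cells, and in 0% after thinning. Pcna had 22, 21 and 8 UMIs there in TBI+IL-25, TBI+PBS and sham, Kif11 18, 13 and 18, and Uhrf1 8, 12 and 3. One TBI+PBS cell held 93.0% of the 201 member UMIs of B cell-like cells, and 1 sham cell held 89.2% of the 139 of T cell-like cells.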

How the data were processed

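The authors deposited 1 matrix of raw UMI counts per library, with no normalization. Per the file headers, Cell Ranger 7.2.0 made the TBI+IL-25 matrix and 7.1.0 the TBI+PBS and sham matrices, and tools and build in the submitters' processing notes are Seurat 4.4.0, bcl2fastq 5.0.1 and GRCm39, beside Cell Ranger 7.2.0. A barcode was kept from 500 UMIs and 300 genes upward if mitochondrial genes took no more than 20% of its UMIs, and Scrublet (scanpy 1.11.5) scores over 0.2 were removed as doublets (652, 291 and 229 cells in TBI+IL-25, TBI+PBS and sham). The libraries hold 61372408, 58148289 and 39536447 UMIs in the same order.

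Cells were clustered jointly (2000 variable genes without the cell cycle genes, 30 components, 15 neighbours, leidenalg 0.10.2). Classes came from clusters at resolution 0.15 and, for B cell-like and mural cells, at resolution 1. Resolutions were set after the clusters were seen. A class name needs at least 3 of its markers. UMIs were summed per library and class. Exact Poisson, Clopper-Pearson and conditional binomial 95% intervals were used, and a count of 0 was limited at 3 counts. For ratios of shares the conditional binomial interval treats numbers of cells as Poisson counts, so it is too wide where shares are large. Members and lists were chosen with earlier results of these data known. Named members were Mki67, Top2a, Cdk1, Mcm2, Pcna and the 5 highest and 3 lowest by the interval bound nearest 1. In other lists they were the 3 highest and 2 lowest. Other members in the text were named to account for the list. The scripts were tested on simulated counts.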

Additional observations from a re-analysis of the deposited data

Results flagged for a closer look

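Shares of cycle-positive cells after thinning to 2000 UMIs went in opposite directions in some classes and clusters, with each interval away from 1. The differences between classes or clusters themselves were not tested. For TBI+PBS over sham the ratio was 18.6 (12.0 to 30.4) in microglia-like and 0.698 (0.518 to 0.937) in neuroblast-like cells. For TBI+IL-25 over TBI+PBS it was 3.43 (2.30 to 5.28) in microglia-like cluster 5, 6.42 (1.92 to 21.4) in cluster 6 (7 of 50 cells and 7 of 321), 1.85 (1.28 to 2.68) in cluster 7 and 0.585 (0.434 to 0.785) in cluster 9. Over G2/M genes alone the thinned ratio in cluster 9 was 1.43 and its interval, 0.559 to 3.93, spanned 1.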

How the results depend on the processing

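Each group had 1 library, so no replicate could be left out. No paired analysis was possible because no group had a second library. Over 14 results and 122 alternatives no called direction was reversed. Not every result could be reversed, since S shares and counts of members have no side of 1. The ratios of TBI+IL-25 over TBI+PBS in all cells and in astrocyte-like cells had no called side. Their alternatives ran from 0.875 to 1.26 and from 0.385 to 1.19. Of the alternatives listed first 63 kept the value within its interval, or a count within 1.5 times, and 43 moved it, and of those added after seeing the data 12 kept it and 4 moved it. The cause was not tested. Classes from resolution 1 and S shares in thinned cells were chosen after seeing the data. Shares of cycle-positive cells are given as TBI+PBS over sham and then TBI+IL-25 over TBI+PBS.

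With at least 5 UMIs, TBI+PBS over sham was 4.66 in all cells, 44.9 in microglia-like and 9.42 in astrocyte-like cells, and TBI+IL-25 over TBI+PBS was 1.11 in microglia-like cells. With at least 3 different members, TBI+PBS over sham was 10.3 in microglia-like cells, and TBI+IL-25 over TBI+PBS was 0.902 in all and 0.529 in astrocyte-like cells. Without Pcna, TBI+PBS over sham was 4.16 in all and 15.6 in microglia-like cells, and TBI+IL-25 over TBI+PBS was 0.875 in all, 1.06 in microglia-like and 0.385 in astrocyte-like cells. With G2/M members only, TBI+PBS over sham was 1.64 in all and 69.2 in microglia-like cells, and TBI+IL-25 over TBI+PBS was 1.48 in microglia-like and 1.09 in astrocyte-like cells. Thinned, TBI+PBS over sham was 2.98 in all, 18.6 in microglia-like and 6.82 in astrocyte-like cells, and TBI+IL-25 over TBI+PBS was 1.26, 1.40 and 1.19. With doublets kept, TBI+IL-25 over TBI+PBS was 1.12 in astrocyte-like cells. The ratios of TBI+IL-25 over TBI+PBS in all cells and in astrocyte-like cells had intervals that spanned 1 in the report, so their side of 1 is not called. In all cells the whole interval lay below 1 without Pcna and above 1 after thinning.

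The count of members at least 2-fold higher in microglia-like cells was 16 for TBI+PBS over sham and 1 for TBI+IL-25 over TBI+PBS with cell cycle genes in the clustering, where 241 and 104 cells of the injured libraries had left the class. For TBI+PBS over sham in astrocyte-like cells it was 1 with 50 UMIs and 10 at 1.5-fold. For TBI+IL-25 over TBI+PBS in astrocyte-like cells it was 8 with doublets kept, 4 at resolution 1, with median-of-ratios factors or at 1.5-fold, 2 from 1000 UMIs per cell or with no UMI minimum, and 0 with cell cycle genes in the clustering, with marker scores or with 50 UMIs.

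The S share of cycle-positive microglia-like cells was 98.6% in TBI+IL-25 and 97.5% in TBI+PBS with cell cycle genes in the clustering, 96.5% and 98.1% with 1 threshold at 0.5, 87.3% and 93.4% without Pcna, and 83.3% and 91.4% thinned. In astrocyte-like cells it was 57.1% and 67.6% without Pcna, and 57.1% thinned in TBI+IL-25. Depth limits the 12 unmeasured astrocyte-like members. Ratios to sham over G2/M members in microglia-like cells rest on 2 sham cells.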
